A study of Mus musculus with 7 samples.

Results

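Monocytes are circulating phagocytes that leave the bone marrow as classical cells, which carry Ly6C and the chemokine receptor CCR2 and enter inflamed tissue. Part of them convert into patrolling cells, which lose Ly6C and CCR2, carry CX3CR1 and CD43, and crawl along the inner wall of blood vessels. The factor C/EBPβ and the nuclear receptor NR4A1 are needed for the patrolling cells in the mouse, and the spleen holds a reservoir of both kinds. The 10 genes described here were chosen by name as genes of these cells and are 10 of the 54532 genes in the deposited table. Classical cells are marked by Ly6c2, Ccr2 and F13a1, and patrolling cells by Cx3cr1, Ace and Treml4. Lyz2 and Csf1r are shared by monocytes and other myeloid cells, Spn encodes CD43, and Cebpb encodes C/EBPβ.

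The libraries were made by bulk RNA sequencing from mouse spleen and are labelled as sorted follicular helper T (Tfh) cells, helper cells of the germinal centre. All mice had been sensitised to ovalbumin (OVA) by injection into the peritoneum. The wild-type group (WT) has 3 libraries and the group labelled Mst1 knockout has 4, with Mst1∆CD4 in their titles, which by convention means a deletion driven in Cd4-expressing cells and their descendants; monocytes are not among them. The labels do not state strain, age, sex or whether a library came from 1 mouse or several. Each library held between 16789158 and 18375275 counts. The kinase MST1 is encoded by Stk4, which stood at 327 ± 10.1 CPM (counts scaled to a common library size; SD, n = 3) in the wild-type libraries and 293 ± 7.34 CPM (n = 4) in the knockout libraries (edgeR adjusted p = 0.225), so its level did not check the labels. The summed level of 9 T and Tfh cell marker genes lay between 521 and 697 CPM in the wild-type libraries and between 179 and 335 CPM in the knockout libraries. Its largest part was Cxcr5, which B cells also carry. Cxcr5 stood at 215, 282 and 218 CPM in the wild-type libraries and at 172, 120, 180 and 71.8 CPM in the knockout libraries. Lyz2 alone exceeded the sum of the 9 genes in every library, and all 10 monocyte genes were detected in all 7 libraries.

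All 3 classical marker genes rose in the knockout libraries, and of the 3 patrolling marker genes 1 fell and 2 did not pass the test. Ccr2 was 3.24-fold, F13a1 2.51-fold and Ly6c2 1.98-fold higher in the knockout libraries, and Cx3cr1 was 2.33-fold lower. When each of the 7 libraries was left out in turn, the calls of Ccr2 and F13a1 held in 7 of 7 fits. That of Ly6c2 held in 2 and that of Cx3cr1 in 1. Of the 10 genes 3 rose, 1 fell and 6 did not pass an adjusted p of 0.05 in edgeR's quasi-likelihood test. Over all 15795 genes tested, 8.71% were called higher and 6.83% lower, 15.5% in all. The median log2 fold change of the 10 was 0.46, and that of all tested genes -0.002. For 3 of the 10 genes the groups lay apart with no overlap, as they did for 30% of all tested genes. In bulk RNA, fewer cells of a type and less RNA per cell cannot be told apart.

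**Figure D1:**
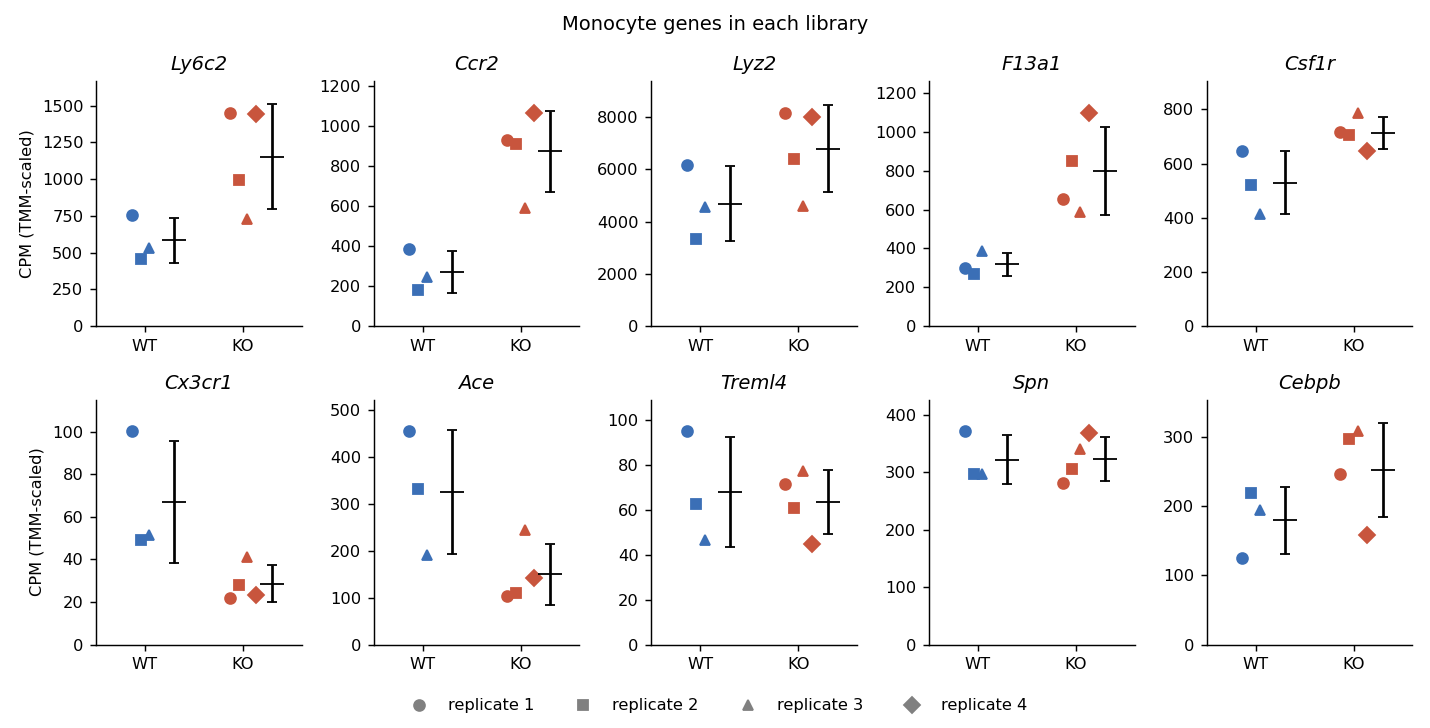
Level of each of the 10 monocyte genes in CPM scaled with TMM, by library. Points are libraries, with a marker shape for each replicate number, and the bar to the right of each group is its mean with 1 SD (n = 3 wild type, WT, and n = 4 knockout, KO). The groups are apart for Ccr2, F13a1 and Cx3cr1 and overlap for the others, and knockout replicate 3 is the lowest knockout library for the classical genes and the highest for the patrolling genes.

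The promoters of the 4 genes that passed the test are shown because these genes define the contrast between classical and patrolling cells. Each is the 250 bases before a start site that RefSeq gives for GRCm38.p6, read 5′ to 3′ on the gene's strand. Capitals mark GAGGAA on either strand, a core of sites for PU.1, the master regulator of myeloid cells.
Ly6c2, chr15:75111972-75112221, minus strand: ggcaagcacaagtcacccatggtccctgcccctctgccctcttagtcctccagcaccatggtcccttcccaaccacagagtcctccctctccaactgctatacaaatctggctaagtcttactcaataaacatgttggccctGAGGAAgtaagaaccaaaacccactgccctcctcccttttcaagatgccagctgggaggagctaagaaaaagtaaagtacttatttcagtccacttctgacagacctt
F13a1, chr13:37050245-37050494, minus strand: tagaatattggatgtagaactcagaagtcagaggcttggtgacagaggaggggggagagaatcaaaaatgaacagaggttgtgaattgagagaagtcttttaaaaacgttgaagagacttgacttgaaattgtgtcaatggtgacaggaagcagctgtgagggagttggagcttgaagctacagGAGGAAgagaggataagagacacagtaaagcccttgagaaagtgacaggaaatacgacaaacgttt
Ccr2, chr9:124101933-124102182, plus strand: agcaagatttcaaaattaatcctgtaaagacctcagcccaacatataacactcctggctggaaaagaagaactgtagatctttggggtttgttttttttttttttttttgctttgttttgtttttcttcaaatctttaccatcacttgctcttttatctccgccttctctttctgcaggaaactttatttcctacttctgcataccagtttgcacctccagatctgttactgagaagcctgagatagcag
Cx3cr1, chr9:120068297-120068546, minus strand: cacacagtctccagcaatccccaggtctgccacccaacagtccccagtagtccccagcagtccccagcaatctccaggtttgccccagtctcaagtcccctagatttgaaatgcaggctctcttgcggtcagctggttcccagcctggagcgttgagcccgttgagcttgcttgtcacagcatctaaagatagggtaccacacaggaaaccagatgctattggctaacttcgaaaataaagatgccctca

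GAGGAA stood in a promoter of 2 classical genes, Ly6c2 and F13a1, and of 2 patrolling genes, Ace and Treml4, so it did not separate these genes by class. It was found in 23.3% of the 32851 promoters in the RefSeq table. That share is per promoter window, while a gene was counted if any of its windows held GAGGAA. Ly6c2, F13a1 and Ace have a further start site, whose windows are not shown. That of Ly6c2 held GAGGAA 2 times, and those of F13a1 and Ace 0 times. Neither TTGCNNAA, a form of the C/EBP site, nor AAAGGTCA, the site of NR4A1, was in the windows of the genes searched, against 9.56% and 1.34% of all promoters. By symbol, 9 of the 10 genes matched that table, all but Csf1r.

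The classical genes are described first. Ccr2 (ENSMUSG00000049103, GRCm38 chromosome 9, 124101950 to 124113557, plus strand) encodes the receptor for CCL2, through which classical monocytes leave the bone marrow. It stood at 383, 179 and 247 CPM in wild-type replicates 1 to 3 and at 930, 910, 589 and 1067 CPM in knockout replicates 1 to 4. All knockout libraries lay above all wild-type libraries. Its log2 fold change of 1.69 (SE 0.29, 95% interval 1.02 to 2.37) passed edgeR's test at an adjusted p of 0.00883, and it did so in each of the 13 alternative fits.

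F13a1 (ENSMUSG00000039109, chromosome 13, 36867178 to 37050244, minus strand) encodes the A chain of coagulation factor XIII, which monocytes, macrophages and platelets carry. Its levels were 299, 270 and 385 CPM in the wild-type libraries and 657, 851, 590 and 1098 CPM in the knockout libraries, with no overlap. The log2 fold change was 1.33 (SE 0.23, 95% interval 0.80 to 1.85, edgeR adjusted p = 0.00786), and the call held in each of the 13 alternative fits.

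Ly6c2 (ENSMUSG00000022584, chromosome 15, 75108158 to 75111970, minus strand) encodes Ly6C, the surface antigen by which classical monocytes are sorted, which plasma cells and some T cells carry too. It was read at 757, 457 and 534 CPM in the wild-type libraries and at 1451, 993, 729 and 1443 CPM in the knockout libraries. Knockout replicate 3 lay below wild-type replicate 1, and the other knockout libraries lay above all wild-type libraries. The log2 fold change of 0.98 (SE 0.28, 95% interval 0.35 to 1.62) passed narrowly, at an edgeR adjusted p of 0.0457. Without wild-type replicate 2 or 3, or knockout replicate 1, 2 or 4, the adjusted p lay between 0.073 and 0.147, and without the filter on low counts it was 0.132.

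Ly6c2 has a near copy on the same chromosome, Ly6c1, which endothelial cells use, and reads of the pair can be assigned to either. Their coding sequences of 396 bases differ at 9 positions, and 32.6% of the 50-base windows of the Ly6c2 transcript also occur in a Ly6c1 transcript. The stretch from coding base 6 to 65 is shown because 6 of these 9 differences, in capitals, fall in it (GENCODE M21 transcripts, GRCm38).
Ly6c2: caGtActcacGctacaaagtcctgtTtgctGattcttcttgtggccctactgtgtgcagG
Ly6c1: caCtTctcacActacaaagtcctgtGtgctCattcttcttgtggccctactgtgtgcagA
Ly6c1 had 324 counts over the 7 libraries and Ly6c2 110966, so Ly6c1 held 0.291% of the counts of the pair. Ly6c1 stood at 3.41 ± 0.73 CPM in the wild-type and 2.15 ± 1.14 CPM in the knockout libraries (edgeR adjusted p = 0.258).

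Among the patrolling genes, Cx3cr1 (ENSMUSG00000052336, chromosome 9, 119901616 to 120069879, minus strand) encodes the receptor for fractalkine, which patrolling monocytes need for their survival. It stood at 100, 49.1 and 51.5 CPM in the wild-type libraries and at 22, 28, 41.3 and 23.5 CPM in the knockout libraries. Every knockout value was under the lowest wild-type value, with knockout replicate 3 closest to it. The log2 fold change was -1.22 (SE 0.31, 95% interval -1.95 to -0.49, edgeR adjusted p = 0.0376). The call was lost without any of the 3 wild-type libraries and without knockout replicate 1, 2 or 4, with adjusted p between 0.0564 and 0.107, and without the filter on low counts, at 0.124. The table's interval for Cx3cr1 overlaps 9 other genes, among them Wdr48 with 8235 counts in all and Csrnp1 with 7489, beside 5434 for Cx3cr1. Wdr48 lies on the plus strand and Csrnp1 on the minus strand, as Cx3cr1 does. Whether the counting used strand is not given in the sources used here.

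Ace (ENSMUSG00000020681, chromosome 11, 105967945 to 105989964, plus strand) encodes angiotensin-converting enzyme, a surface peptidase of endothelium and of patrolling monocytes. Its levels were 454, 330 and 190 CPM in the wild-type libraries and 103, 109, 244 and 141 CPM in the knockout libraries. Knockout replicate 3 lay above wild-type replicate 3, and the other knockout libraries lay below every wild-type library. The log2 fold change of -1.12 (SE 0.39, 95% interval -2.03 to -0.21) did not pass edgeR's test (adjusted p = 0.0954). It passed without knockout replicate 3, at an adjusted p of 0.0256, and with DESeq2, at 0.00788.

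Treml4 (ENSMUSG00000051682, chromosome 17, 48264295 to 48275360, plus strand) encodes a receptor of the TREM family that mouse patrolling monocytes, spleen macrophages and CD8 dendritic cells carry. It was read at 94.8, 62.7 and 46.7 CPM in the wild-type libraries and at 71.5, 60.8, 77.3 and 44.9 CPM in the knockout libraries, and the groups overlapped. Its log2 fold change was -0.10 (SE 0.26, 95% interval -0.70 to 0.51, edgeR adjusted p = 0.832), and its sign turned when wild-type replicate 1 or knockout replicate 4 was left out. The interval holds changes of up to 1.62-fold downwards and 1.42-fold upwards. Treml4 thus had values apart from those of Cx3cr1 and Ace. The count ratio of Treml4 to Cx3cr1 lay between 0.906 and 1.28 in the wild-type libraries and between 1.87 and 3.25 in the knockout libraries. That of Treml4 to Ace lay between 0.19 and 0.246 and between 0.316 and 0.695.

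**Figure D2:**
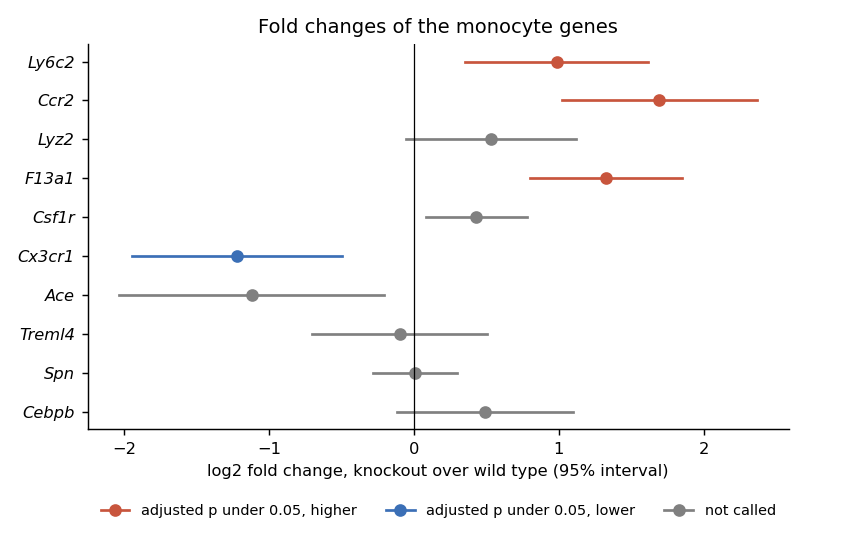
Log2 fold change of each monocyte gene, knockout over wild type, with its 95% interval from edgeR (n = 3 and 4). Red marks genes called higher, blue a gene called lower and grey those not called. Ccr2, at 1.69, is farthest to the right, and Cx3cr1, at -1.22, is farthest to the left.

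None of the other 4 genes, which are not taken as markers of either class, passed the test. Csf1r (ENSMUSG00000024621, chromosome 18, 61105572 to 61132149, plus strand) encodes the receptor for the growth factor CSF1, on which monocytes and macrophages depend. It stood at 648, 522 and 415 CPM in the wild-type libraries and at 715, 704, 787 and 645 CPM in the knockout libraries. Knockout replicate 4 lay just below wild-type replicate 1, and the log2 fold change was 0.43 (SE 0.15, 95% interval 0.08 to 0.78, edgeR adjusted p = 0.0905). It passed without wild-type replicate 1 (0.0449), without the filter on low counts (0.0435) and with DESeq2 (0.0491). The interval of Csf1r overlaps Hmgxb3 on the minus strand, which had 4824 counts in all beside 77359 for Csf1r.

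Lyz2 (ENSMUSG00000069516, chromosome 10, 117277331 to 117282321, minus strand) encodes the lysozyme of monocytes, macrophages and neutrophils. It reached 6169, 3333 and 4561 CPM in the wild-type libraries and at 8156, 6398, 4582 and 8004 CPM in the knockout libraries. The groups overlapped (log2 fold change 0.53, SE 0.26, edgeR adjusted p = 0.196). Its near copy Lyz1, the lysozyme of Paneth cells, held 0.141% of the counts of that pair, and 15.4% of the 50-base windows of Lyz2 also occur in Lyz1. Lyz1 went from 3.97 ± 1.44 to 11.6 ± 7.58 CPM (log2 fold change 1.55, edgeR adjusted p = 0.0845).

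Spn (ENSMUSG00000051457, chromosome 7, 127132232 to 127137823, minus strand) encodes CD43, which is high on patrolling monocytes and also present on T cells and neutrophils. Its levels were 371, 298 and 297 CPM in the wild-type libraries and 282, 305, 341 and 368 CPM in the knockout libraries. The log2 fold change was 0.01 (SE 0.13) with a 95% interval of -0.28 to 0.30 (edgeR adjusted p = 0.973), and its sign turned when wild-type replicate 2 or 3, or knockout replicate 3 or 4, was left out. Cebpb (ENSMUSG00000056501, chromosome 2, 167688915 to 167690418, plus strand) was at 125, 219 and 195 CPM and at 246, 297, 308 and 158 CPM. Its groups overlapped through knockout replicate 4 (log2 fold change 0.49, SE 0.26, edgeR adjusted p = 0.248). The interval of Cebpb overlaps Tmem189 on the minus strand, which had 5938 counts in all beside 27127 for Cebpb.

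Levels were compared between genes per length, as deposited FPKM, which scales fragments to gene length and library size. In the wild-type libraries the order of mean FPKM was Lyz2 (3525 ± 1057), Ly6c2 (211 ± 55.4), Cebpb (118 ± 32.4), Csf1r (107 ± 23.1), Spn (68.1 ± 8.73), Ace (60.7 ± 24.5), F13a1 (46.8 ± 8.96), Ccr2 (39.5 ± 15.1), Treml4 (33.7 ± 12.0) and Cx3cr1 (14.7 ± 6.26). The ranges over libraries overlapped between Cebpb and Csf1r, and for each neighbouring pair from Spn to Treml4. In the knockout libraries Ccr2 (128 ± 29.2) and F13a1 (117 ± 32.9) stood beside Csf1r (145 ± 12.4), with overlapping ranges, and above Spn (68.5 ± 7.79). Treml4 (31.6 ± 7.18) and Ace (28.0 ± 12.3) overlapped there, and Cx3cr1 (6.31 ± 1.95) was again lowest. Among all genes of the table, Ccr2 went from rank 1399 to rank 342 by mean FPKM, and Cx3cr1 from rank 3990 to rank 7373.

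The contrast between the classes was read within each library as the count ratio of a classical to a patrolling gene, which does not depend on how libraries are scaled. Summed over the 3 genes of each class, classical counts were 2.22, 2.05 and 4.05 times the patrolling counts in the wild-type libraries and 15.5, 13.9, 5.26 and 17.2 times in the knockout libraries. Every knockout library lay above every wild-type library, and knockout replicate 3 and wild-type replicate 3 were the closest to each other. In every library Ly6c2 had the most counts of the 3 classical genes and Ace the most of the 3 patrolling genes. Ace by itself did not pass edgeR's test (adjusted p = 0.0954), and its groups overlapped. These sums are a description, with no test, and no share of sums without overlap was computed for other genes.

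The ratio of Ccr2 to Cx3cr1 was 3.83, 3.65 and 4.80 in the wild-type libraries and 42.3, 32.5, 14.3 and 45.4 in the knockout libraries. The mean difference was 2.92 on the log2 scale (two-sided exact permutation p = 0.0286, the smallest that 35 splits of 7 libraries allow, and 0.0735 after Benjamini-Hochberg adjustment over the 9 pairs). The ratio of F13a1 to Cx3cr1 differed by 2.49 with the same exact p and the same adjusted value. Of the 9 pairs, none passed 0.05 after adjustment, and these 2 passed before it. The other 7 pairs had an exact p of 0.0571 or 0.0857, with differences between 1.03 for Ly6c2 to Treml4 and 2.85 for Ccr2 to Ace. The groups overlapped for Ly6c2 to Treml4 and F13a1 to Treml4, and did not for the other 7 pairs. All 9 mean ratios were higher in the knockout libraries. The 9 pairs reuse the same 3 classical and 3 patrolling genes, so they are not independent of each other. Single genes did not overlap for 30% of all tested genes, and no such share was computed for pairs.

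**Figure D3:**
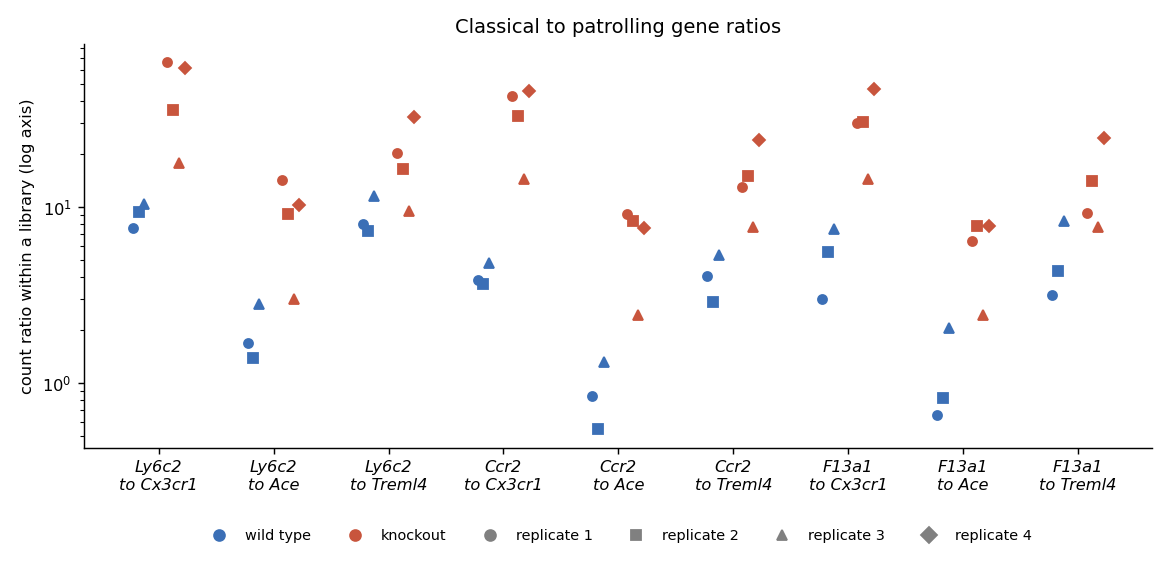
Count ratio of a classical to a patrolling gene within each library, on a log axis, for the 9 pairs. Points are libraries, blue for wild type and red for knockout, with a marker shape for each replicate number. The ratio of Ccr2 to Cx3cr1 reaches 4.80 at most in the wild-type libraries and lies at 14.3 or above in the knockout libraries, while ratios to Treml4 lie closer together.

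Csf1r, which both kinds of monocyte carry, gave another denominator, read as a description. Its own fitted level was 1.35-fold higher in the knockout libraries (adjusted p = 0.0905 in edgeR), which lowers every ratio to it there. Ccr2 counts were 0.343 to 0.596 of Csf1r counts in the wild-type libraries and 0.749 to 1.65 in the knockout libraries. For Ly6c2 and F13a1 the groups overlapped. Ly6c2 was at 0.876 to 1.29 and 0.926 to 2.24, and F13a1 at 0.462 to 0.928 and 0.75 to 1.70. Cx3cr1 counts were 0.0939 to 0.155 and 0.0308 to 0.0525 of Csf1r counts. Ace was at 0.457 to 0.70 and 0.144 to 0.311, and Treml4 at 0.112 to 0.146 and 0.0697 to 0.10, although the level of Treml4 itself overlapped between the groups. Ccr2 also stood higher relative to Ly6c2 in the knockout libraries, at 0.641 to 0.916 against 0.392 to 0.506.

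Of 14 other genes of classical monocytes, 5 rose, none fell and 9 did not pass, with a median log2 fold change of 0.48 beside -0.002 for all tested genes. Among all tested genes 8.71% rose. Ccr1, a receptor for inflammatory chemokines, rose 2.82-fold, from 45.2 ± 4.29 CPM (n = 3) to 128 ± 36.6 CPM (n = 4) (SE 0.24 on the log2 scale, edgeR adjusted p = 0.0065). Fn1, which encodes fibronectin, rose from 648 ± 92.3 to 1309 ± 419 CPM, and the extracellular matrix gene Emilin2 from 218 ± 32.1 to 467 ± 133 CPM. Mmp8, a collagenase that neutrophils store, rose by 0.59 on the log2 scale, and Clec4e, the mycobacterial glycolipid receptor Mincle, by 0.48. Chil3 at 1970 ± 531 and 2329 ± 732 CPM and Plac8 at 725 ± 222 and 1008 ± 319 CPM did not pass (adjusted p = 0.591 and 0.31). Leaving out wild-type replicate 1 or 2 or knockout replicate 2 left 2 of the 14 genes called, leaving out knockout replicate 1 left 3, and leaving out wild-type replicate 3 left 1. Ccr1 passed in each removal of a library.

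Of 14 other genes of patrolling monocytes, 6 fell, none rose and 8 did not pass, and all 14 had a log2 fold change below 0, with a median of -0.55. Among all tested genes 6.83% fell. Cd300e, an activating receptor of monocytes, had a log2 fold change of -1.47, from 46.2 ± 16.9 CPM down to 16.7 ± 5.24 CPM (SE 0.30, edgeR adjusted p = 0.0172). Fabp4, a fatty acid binding protein, fell from 8.66 ± 4.79 to 1.37 ± 0.61 CPM, and Ear2, a ribonuclease gene, from 45.7 ± 7.31 to 23.9 ± 7.54 CPM. The transcription factor gene Pou2f2, which B cells also express, fell by 0.80 on the log2 scale, the scavenger receptor gene Cd36 by 0.89 and Cd300ld by 0.62. Itgal, the LFA-1 integrin chain that nearly all leukocytes carry, was at 832 ± 200 and 710 ± 31.8 CPM and Ceacam1 at 224 ± 35.8 and 172 ± 32.8 CPM, and neither passed (adjusted p = 0.343 and 0.154). Without wild-type replicate 1 or 2 the count of lower genes was 1, and without knockout replicate 2 it was 3. Fabp4 passed in each removal.

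**Figure D4:**
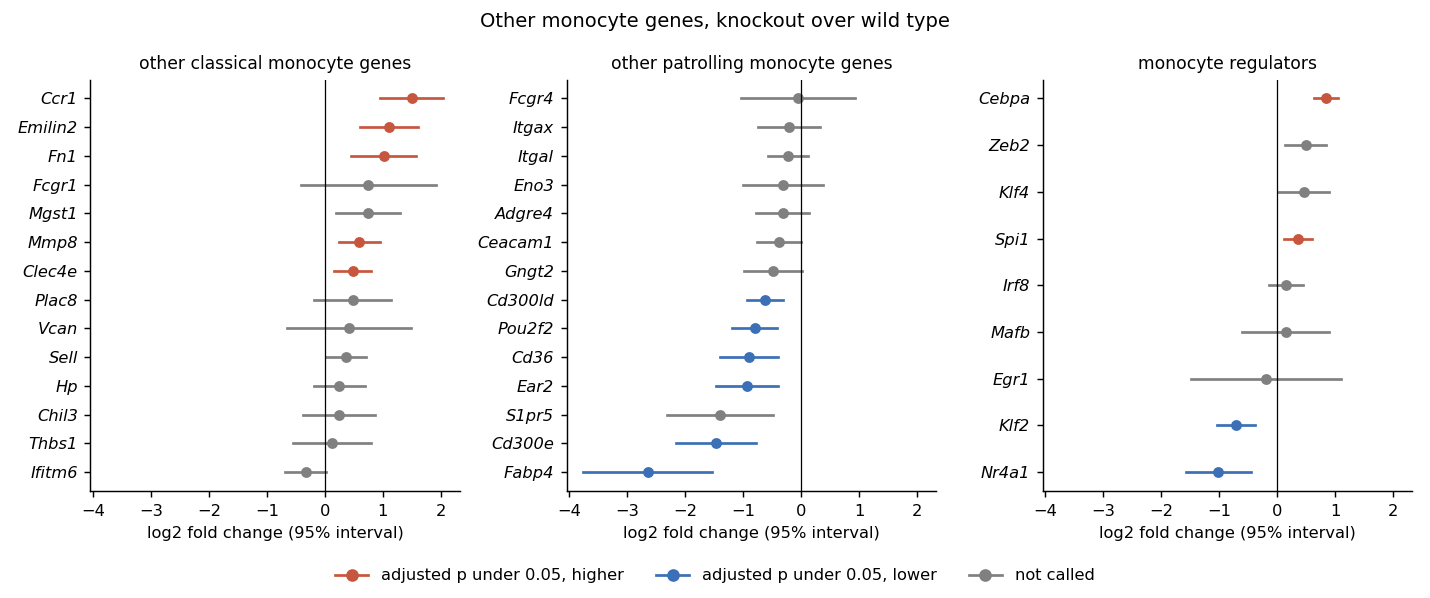
Log2 fold changes, knockout over wild type, with 95% intervals from edgeR for 14 other classical genes, 14 other patrolling genes and 9 regulators. Red marks genes called higher, blue genes called lower and grey those not called. Points of the patrolling panel all lie below 0, with Fabp4 at -2.65, and those of the classical panel lie above 0 except for Ifitm6.

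Of 9 regulators of monocyte development, 2 rose and 2 fell, while 8.71% of all tested genes rose and 6.83% fell. Cebpa, needed for myeloid commitment, rose from 78.5 ± 3.09 to 141 ± 11.8 CPM (log2 fold change 0.85, SE 0.09, edgeR adjusted p = 0.00119), and in each removal of a library. Spi1, which encodes PU.1, rose by 0.36 (adjusted p = 0.0479), and the call held in 1 of 7 removals. Nr4a1 stood at 296, 181 and 146 CPM in the wild-type libraries and at 79.5, 110, 122 and 99.3 CPM in the knockout libraries. It fell by 1.02 (SE 0.24, adjusted p = 0.0283), and the call held in 3 of 7 removals. Nr4a1 is also induced by antigen receptor signalling in T and B cells, whose markers were lower in the same libraries. Klf2, a transcription factor gene abundant in resting lymphocytes, fell from 317 ± 44.2 to 194 ± 29.8 CPM. Irf8 and Zeb2 did not pass (adjusted p = 0.488 and 0.0672). The count of lower regulators was 1 without knockout replicate 1 or 4 and 0 without wild-type replicate 2, and that of higher ones was 1 without wild-type replicate 2 or 3 or knockout replicate 2 or 4.

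The ligands of the receptors in the list were scarce. Of 6 genes, Ccl7, Ccl12, Cx3cl1 and Il34 had too few counts to be tested and stood below 0.4 CPM in every library. Ccl2, the main ligand of CCR2, lay between 0.39 and 4.12 CPM in all libraries (edgeR adjusted p = 0.788). Csf1, the ligand of the CSF1 receptor, rose from 26.8 ± 2.75 to 43.0 ± 9.88 CPM (adjusted p = 0.0404), a call that held without knockout replicate 3 and in no other removal. Over all tested genes, 8.71% were called higher and 6.83% lower. Of 7 genes of myeloid progenitors, 2 rose and none fell. They were Kit, the stem cell factor receptor, from 28.8 ± 2.22 to 50.6 ± 2.13 CPM, and Cd34, from 3.79 ± 0.65 to 7.70 ± 1.04 CPM, both also in each removal. The granule genes of this list, Mpo at 409 ± 118 and 602 ± 263 CPM and Prtn3 at 291 ± 85.1 and 460 ± 198 CPM, did not pass (adjusted p = 0.331 and 0.25). Of 7 genes shared by myeloid cells, Mpeg1, a pore-forming protein of phagocytes, rose by 0.95, and Itgam, which encodes CD11b, fell by 0.80. The call of Mpeg1 was lost without wild-type replicate 2 or 3 or knockout replicate 2, and that of Itgam without wild-type replicate 1 or 2 or knockout replicate 2. Cybb and Tyrobp did not pass (adjusted p = 0.238 and 0.206).

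Markers of some other cell types also moved with the labels, and the part of those cells in the results was not tested. The shares of all tested genes to set beside the counts below are 8.71% higher and 6.83% lower. Of 10 neutrophil markers 4 fell and none rose, and their summed level lay between 14139 and 17415 CPM in the wild-type libraries and between 8864 and 12411 CPM in the knockout libraries. The sum is made up mostly of the granule genes S100a8, S100a9, Ngp, Ltf and Camp. Of the 10 markers 3 had a log2 fold change above 0 without passing the test, namely Cxcr2 at 0.39, Csf3r at 0.38 and Retnlg at 0.35. The sum of 9 red pulp macrophage markers overlapped, at 438 to 839 and 278 to 997 CPM, and 0 of the 9 passed in edgeR, at an unadjusted p of 0.05 or in DESeq2. Plasma cell markers, at 935 to 2030 and 702 to 2547 CPM, overlapped as well, with 0 of 3 by each of these. The 7 markers of natural killer and CD8 T cells, some of which carry Cx3cr1, Spn and Ly6c2, summed to 121 to 241 and 84.1 to 158 CPM, with 2 of 7 lower. Dendritic cell markers, 9 in all, rose for 2, Xcr1 and Zbtb46, and fell for 2, Cd209a and Ccr9. Their sums were 117 to 174 and 187 to 331 CPM, and 5 of the 9 had a log2 fold change above 0. The largest part of the sum in the knockout libraries was Dnase1l3, at 41.8 ± 12.9 CPM in the wild-type and 109 ± 47.5 CPM in the knockout libraries. Dnase1l3 itself did not pass (edgeR adjusted p = 0.0521). B cell markers summed to 2612 to 3642 and 844 to 2140 CPM, and 0 of 4 passed in edgeR after adjustment, while all 4 had an unadjusted p under 0.05 and all 4 were called lower by DESeq2. T and Tfh cell markers summed to 521 to 697 and 179 to 335 CPM, with 8 of 9 lower. Erythroid markers summed to 121 to 160 and 557 to 1279 CPM, with 5 of 5 higher. No marker of these lists was at 0 in any library.

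**Figure D5:**
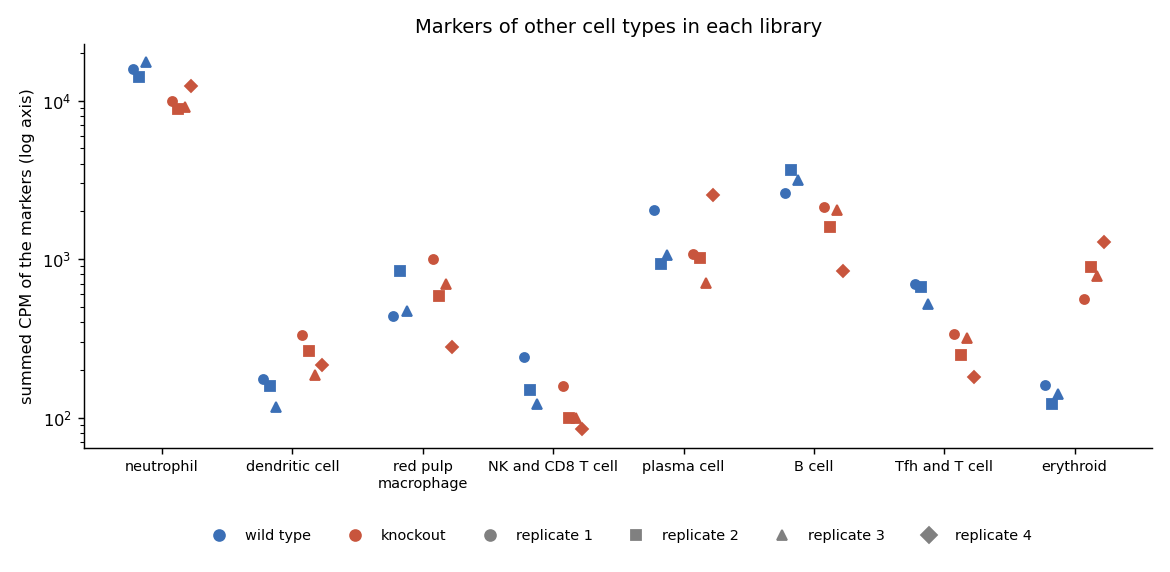
Summed CPM of the marker genes of other cell types in each library, on a log axis. Points are libraries, blue for wild type and red for knockout, with a marker shape for each replicate number. Neutrophil, B cell and T cell sums are lower in all knockout libraries, dendritic and erythroid sums are higher in all of them, and the other sums overlap. In the knockout libraries Dnase1l3 is the largest part of the dendritic sum.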

How the data were processed

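Counts per gene, as deposited by the authors, are whole numbers with no normalization in 54532 genes. The deposited FPKM values equal the counts over gene length and a factor per library. Reads were placed on GRCm38 (mm10) according to the submitters' processing notes. Not given in the sources used here are the aligner, counter, annotation and strand setting. Of the authors' own deposited comparison (VPA against VPC, per the file headers), the log2 fold changes, the p-values and the 2 columns of means are not used.

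Counts of all 7 libraries were fitted with edgeR 4.0.16 (TMM, filterByExpr, robust quasi-likelihood F-test, genotype as the only term) in R 4.3.3, adjusted with Benjamini-Hochberg over 15795 genes. SEs are the log2 fold change over the root of F. The edgeR step was run on simulated counts of 15795 genes, in groups of 3 and 4 libraries. It recovered 66% of 100 genes changed by 1 on the log2 scale and 92% of 100 changed by 2, with 12 false calls. Within-library ratios used a prior of 0.5 counts and an exact permutation test. Alternatives were DESeq2 1.42.0, RLE size factors, total library size, no filter beyond 1 count, at least 1 CPM in 3 libraries, a replicate block and the removal of each library. For the ratios they were FPKM and a prior of 5 counts.

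The members and lists were chosen with earlier results of these data known. The text names all members, the near copies, up to 8 called genes of each list by smallest p and the 2 most abundant uncalled genes. Replicates are called biological by the labels, and no pair of libraries of the same group agreed within sampling noise.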

Additional observations from a re-analysis of the deposited data

Results flagged for a closer look

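Among the knockout libraries, the Ccr2 to Ace ratio of knockout replicate 3 stood apart from the others, at 1.27 on the log2 scale, a ratio of 2.41. The other knockout libraries had ratios between 7.58 and 9.03, and the wild-type libraries between 0.543 and 1.30. The same library had the highest Ace level of the knockout group (244 CPM) and the lowest Ccr2 level (589 CPM). Chance marks about 1 in 20 such groups, and 19 quantities were looked at.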

How the results depend on the processing

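Ccr2, F13a1, Ccr1, Fabp4, Cebpa, Kit and Cd34 kept their direction and their call in each of 13 alternative fits. The number of members called higher stayed between 2 and 4. That of members called lower was 0 without the filter on low counts and 0 with the replicate block, 2 with DESeq2, and 0 to 2 when a library was left out. Replicate numbers did not pair the libraries: same-numbered deviations correlated at -0.05, 0.01 and 0.21. With the replicate block, in which knockout replicate 4 adds nothing, 1 other classical gene was lower, 3 other patrolling genes were lower, 1 regulator was higher and 1 lower, 3 shared myeloid genes were higher and 1 near copy was higher. There Cx3cr1 was not called (adjusted p = 0.214) and Cebpb was called higher (0.69, adjusted p = 0.0156), and Treml4 stood at 0.0887 and Spn at -0.0553, signs opposite to the main ones, and block means of the 9 ratios moved by less than 1 SD. Shared myeloid genes called higher were 2 by total library size, 2 without the filter and 3 with DESeq2, which also called 1 near copy higher, and 1 regulator was lower without the filter.

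When a library was left out, genes called over the whole table ran from 1050 to 2553, with 639 to 1415 higher and 411 to 1138 lower. Other classical genes called ran from 1 to 6 higher and from 0 to 1 lower, and other patrolling genes from 1 to 8 lower. Regulators ran from 1 to 2 higher and from 0 to 2 lower, ligands from 0 to 1 higher, and shared myeloid genes from 0 to 2 higher and from 0 to 1 lower. Near copies ran from 0 to 1 in either direction. The log2 fold change of Treml4 ran from -0.31 to 0.22, of Spn from -0.0542 to 0.122 and of Ccl2 from -0.46 to 1.14. Fewer libraries enter these fits. All 9 ratios kept their direction. The spread over 3 and 4 libraries, not counting, sets the precision: the scarcest member, Cx3cr1, had at least 372 counts in a library.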

Other observations

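After the group means were taken out, Ccr2 varied across the 7 libraries most like Lyz2 (Pearson r = 0.961) and Ly6c2 (0.894) among the members, and opposite to Cebpb (-0.824). Its r with F13a1 was 0.518 and with Csf1r 0.147. Cx3cr1 varied like Ace (0.794), Csf1r (0.784) and Treml4 (0.738), although Treml4 did not differ detectably between the groups. Of 9739 genes with a mean of at least 10 CPM, those most like Ccr2 were Msr1, a scavenger receptor of macrophages (0.996), Ighv1-53 (0.991), Igkv4-70 (0.984) and Nipa2 (0.983). Those most like Cx3cr1 were Txlna (0.991), Lrig1 (0.988), Vezf1 (0.988) and Grk3 (0.983). These values describe 7 points that share library depth and composition, and the highest of 9739 would be high in unrelated genes too.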
